A study of Homo sapiens with 6 samples.

Results

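The G1 control genes of A549 cells, an established human lung adenocarcinoma line, were compared between cells given a DDX17 siRNA and cells given a nontargeting siRNA. The members were 10 of the 29476 genes in the count table, taken by symbol: the cyclin genes CCND1, CCND3, CCNE1 and CCNE2, the kinase genes CDK2, CDK4 and CDK6, the pocket protein gene RB1, the transcription factor gene E2F1 and the inhibitor gene CDKN1B. All 10 had enough reads to be tested, among the 15615 genes tested. Polyadenylated RNA was sequenced from 3 control libraries (siCtrl 1, 2 and 3) and 3 DDX17 knockdown libraries (siDDX17 1, 2 and 3). The methods describe lipofection, culture in MEM with serum, and a harvest at 48 h for RT-qPCR; no other time is named for the sequenced cells. The series rests on a single DDX17 siRNA in a single cell line, whose cells all share the genome of A549. The genotype labels call the controls a plasmid and the sample titles call them siCtrl.

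In G1, cells decide whether to replicate their DNA. D-type cyclins bind CDK4 or CDK6 and begin to phosphorylate RB1, which otherwise holds E2F factors inactive on their target genes. Released E2F factors with their DP partners switch on CCNE1, CCNE2, E2F1 itself and the genes of DNA replication, and cyclin E with CDK2 completes the phosphorylation of RB1. The inhibitors of the INK4 family block CDK4 and CDK6, and those of the CIP/KIP family, such as p27 from CDKN1B and p21 from CDKN1A, block CDK2. A549 cells are known for a homozygous deletion that takes the INK4 gene CDKN2A, with RB1 retained. No counts were listed for CDKN2A and CDKN2B, so they were not analysed here.

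The libraries held between 30658136 and 39182371 counted reads. DDX17, the targeted gene, had a mean ± SD of 189 ± 14.9 CPM in the controls and 31.1 ± 0.877 CPM in the knockdown (n = 3 each), where CPM (counts per 1000000 reads) are reads divided by library sizes scaled with TMM factors. By chi-square per gene, siCtrl 1 stood apart from siCtrl 2 and 3 (21.0 and 26.0, against 5.96 for siCtrl 2 with siCtrl 3 and 3.61 to 5.51 among the siDDX17 libraries). Of 5 epithelial markers all were expressed, with a summed level of 2436 to 2624 FPKM (fragments scaled to gene length and library size) in siCtrl and 2308 to 2456 FPKM in siDDX17. The 4 endothelial markers had at most 10 reads in every library, as did 2 of 3 blood cell markers analysed (the exception was CD14) and 2 of 4 fibroblast markers. The summed level of the blood cell markers was 10.3 to 13.8 FPKM in siCtrl and 15.0 to 15.5 FPKM in siDDX17, and its part in the results was not tested.

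Short sequences referred to below are shown first, and their part in the results was not tested. The promoter windows of RefSeq (GRCh38.p14, 250 bases before to 50 bases after a start site) were held for 7 members, with 3 windows for CCND3 and 2 for CDK6, and some, as that of RB1, lay inside the gene model. All windows were searched on both strands, at every position and with overlaps allowed, for the E2F motifs TTTCGCGC, TTTGGCGC, TTTCCCGC and TTTGCCGC. Of the tested genes with a window, 5.19% held a motif in the first window listed for the gene. The only window of RB1 spans 48476200 to 48476499 on chromosome 13. The start of its gene model, at 48303744, was thus not searched. Among the 7 members, the motif was found in 1, E2F1, whose gene is under E2F control itself. It had 2 matches, both on chromosome 20, minus strand, with the motif or its reverse complement in capitals.
E2F1, chr20:33686400-33686429, motif starting 33 bases before the start site: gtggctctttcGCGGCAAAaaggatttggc
E2F1, chr20:33686387-33686416, motif starting 20 bases before the start site: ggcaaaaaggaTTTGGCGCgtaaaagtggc

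Small interfering RNAs can also pair with other mRNAs through bases 2 to 8 of a strand, the seed, mostly in 3′ UTRs. For the antisense strand of the DDX17 siRNA, that match reads TATTGCT. It was present in the canonical 3′ UTR (GENCODE release 44) of 3 members: 3 times in CDK6, 2 times in CDK2 and 2 times in RB1. Among the 12986 tested genes with such a 3′ UTR of at least 30 bases, 1882 (14.5%) held it. The sites are shown with the match in capitals, because the genes that carry them include members that fell and RB1, which had no detected change.
CDK6, chr7:92613980-92614008, minus strand: cttctgaaataTATTGCTaccattgtata
CDK6, chr7:92611450-92611478, minus strand: ttcttctaaaaTATTGCTtttcttttaag
CDK6, chr7:92606008-92606036, minus strand: ccgtttgcttaTATTGCTacagaatgctc
CDK2, chr12:55971862-55971890, plus strand: cttctcttagtTATTGCTgaagagggttg
CDK2, chr12:55972291-55972319, plus strand: tcattccaatcTATTGCTtcaccatggcc
RB1, chr13:48481762-48481790, plus strand: gcttcagatatTATTGCTttattgctttt
RB1, chr13:48481770-48481798, plus strand: tattattgcttTATTGCTtttttgtattg

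The G1 cyclins and their kinases were lower in the knockdown, while RB1 had no detected change. By the quasi-likelihood test of edgeR, with Benjamini-Hochberg adjustment and a limit of 0.05, 9 of the 10 members fell and 0 rose, against 24.3% of all tested genes lower and 24.5% higher. RB1 was the exception (edgeR adjusted p = 0.816). The median log2 fold change of the members was -0.68, and that of all tested genes was 0.0051. In 8 members each siDDX17 library lay below each siCtrl library, whereas 27.7% of all tested genes were lower and 28.8% higher without overlap. CDKN1B and RB1 overlapped between the groups. At the limits of the study's methods, an unadjusted p under 0.01 and a fold change of 1.5, CCND1, CCNE1, CCNE2, CDK2 and CDK6 were lower (5 of 10) and 0 were higher, against 8.03% and 11% of all tested genes. When a log2 fold change beyond 1 in either direction was required beside the adjusted p, CCNE2 and CDK6 remained (2 of 10), and 0 were higher, against 2.92% and 4.65% of all tested genes.

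**Figure D1:**
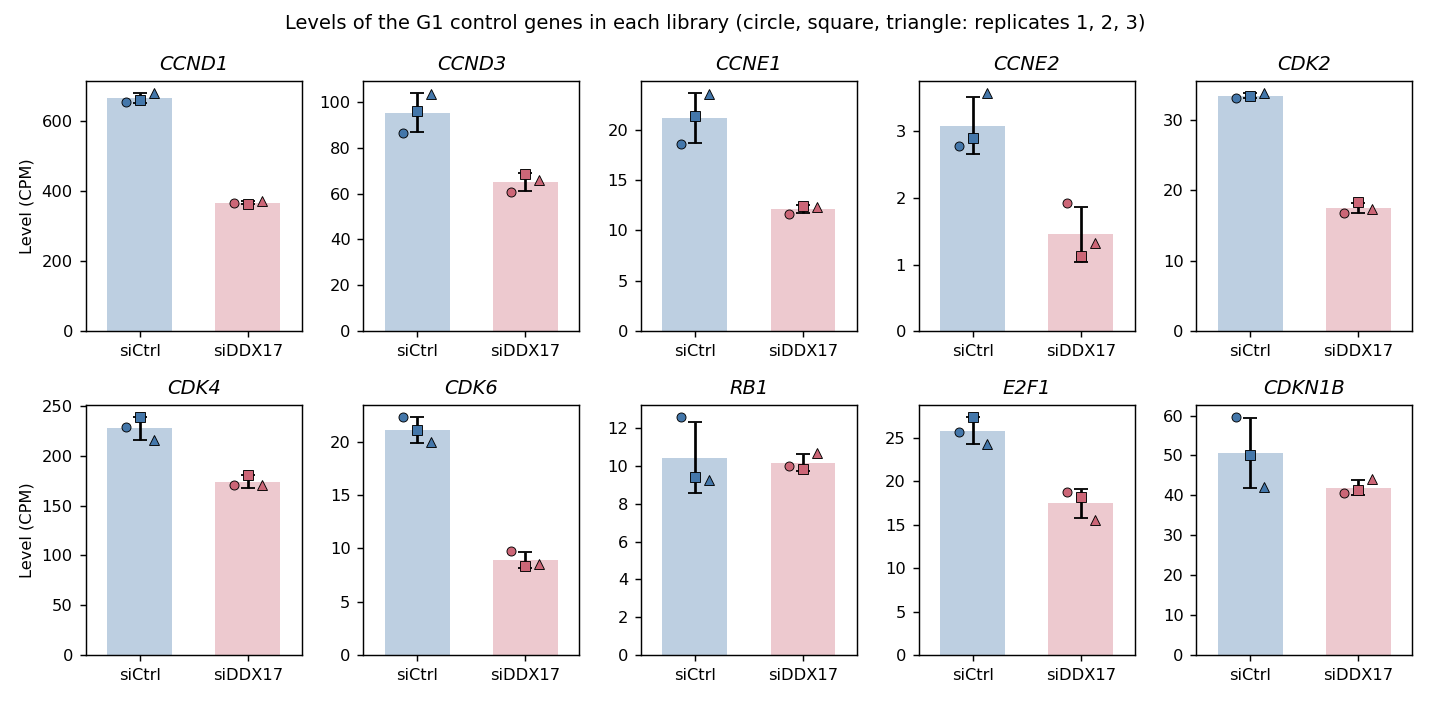
Level of each of the 10 genes in CPM (vertical axis, from 0) in the siCtrl (blue) and siDDX17 (red) libraries; bars are means, error bars SD over 3 libraries, and circles, squares and triangles are replicates 1, 2 and 3. The groups are separate in 8 genes and overlap in RB1 and CDKN1B, where siCtrl 1 is the highest library.

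Compared per length, CCND1 was the most abundant of the 10 mRNAs in control cells, with 139 ± 3.71 FPKM (SD, n = 3), followed by CDK4 with 100.5 ± 4.51 FPKM. CCND3 came next with 22.1 ± 1.81 FPKM and CDKN1B with 17.5 ± 3.28 FPKM, and these neighbours overlapped. CDK2 had 12.5 ± 0.249 FPKM. E2F1 and CCNE1 overlapped at 9.44 ± 0.471 and 9.31 ± 1.02 FPKM. RB1 and CDK6 also overlapped, at 1.98 ± 0.401 and 1.65 ± 0.121 FPKM, and CCNE2 was lowest with 0.827 ± 0.115 FPKM. In siDDX17 the first 2 genes overlapped, with 84.1 ± 2.09 FPKM for CDK4 and 83.5 ± 1.87 FPKM for CCND1, while RB1 (2.10 ± 0.114 FPKM) lay above CDK6 (0.760 ± 0.0624 FPKM) without overlap.

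CCND1 encodes cyclin D1, the D-type cyclin that growth factor signals raise. It lies on chromosome 11, plus strand, from 69641156 to 69654474 (GRCh38, as all positions below). In replicates 1, 2 and 3, in the order used throughout, the control libraries held 655, 662 and 682 CPM and the knockdown libraries 367, 363 and 371 CPM. The knockdown libraries differed among themselves by little and all lay far below the controls. On the log2 scale this was a fold change of -0.86 (SE 0.0527, edgeR adjusted p = 3.93e-08), a level 44.9% lower. These values rest on 13242 to 25538 reads per library, the deepest coverage of any member. In the annotation, 10.4% of its exonic bases also lie in exons of LTO1 on the opposite strand, which had at most 679 reads.

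CCND3, which encodes cyclin D3, lies on chromosome 6, minus strand, from 41934934 to 42050357. The controls held 86.2, 96.2 and 103 CPM and the knockdown libraries 60.7, 68.6 and 66.1 CPM. Here the control libraries were more spread, with siCtrl 1 lowest, but the groups did not overlap. CCND3 had a log2 fold change of -0.55 (SE 0.0726, edgeR adjusted p = 3.73e-05), and -0.63 without siCtrl 1. The remaining D-type cyclin gene, CCND2, had 1 to 3 reads per library and was not tested. Within a library, CCND1 was 6.29 ± 0.463 times as abundant as CCND2 and CCND3 together in siCtrl and 5.06 ± 0.343 times in siDDX17 (FPKM, SD, n = 3). This ratio was lower in each knockdown library than in each control library, by 0.31 on the log2 scale (exact two-sided permutation test, p = 0.1, the smallest that 3 libraries against 3 allow). Summed over the D-type cyclins, the level was 160, 156 and 166 FPKM in siCtrl and 98.98, 98.8 and 102 FPKM in siDDX17.

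CDK6 had the largest log2 fold change of the 10 members with all libraries counted. Without siDDX17 1, CCNE2 exceeded it (-1.33 against -1.32), and on log2(FPKM + 1) so did CDK2 and CCND1 (-0.73 and -0.72 against -0.59). This kinase partner of the D-type cyclins lies on chromosome 7, minus strand, from 92604921 to 92836573. Control libraries held 22.4, 21.1 and 19.96 CPM, and 9.76, 8.39 and 8.51 CPM remained in the knockdown. Thus every knockdown library was under every control, with a log2 fold change of -1.25 (SE 0.0874, edgeR adjusted p = 1.22e-07), a level 57.9% lower, with 306 to 758 reads per library. CDK6 is also the member whose 3′ UTR, 10219 bases long, holds the 3 TATTGCT sites printed above, of which those at bases 1143 and 9115 of the UTR are followed by A.

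CDK4, the other kinase of the D-type cyclins, lies on chromosome 12, minus strand, from 57747727 to 57756013. The controls held 229, 239 and 216 CPM and the knockdown libraries 171, 181 and 171 CPM. The groups were separate, and the log2 fold change of -0.39 (SE 0.0583, edgeR adjusted p = 0.000114) was the smallest of the cyclin and kinase members. CDK4 was 60.9 ± 3.14 times as abundant as CDK6 in siCtrl and 111 ± 11.3 times in siDDX17 (FPKM, SD, n = 3). The log2 ratio of CDK4 to CDK6 rose in each knockdown library above each control library, by 0.86 (exact permutation test, p = 0.1, the smallest possible). Since CDK4 made up 98.4% of the summed FPKM of both kinases in siCtrl, that sum was 105.1, 104.6 and 96.9 FPKM in siCtrl and 83.3, 87.1 and 84.0 FPKM in siDDX17. In the annotation 44.2% of the exonic bases of CDK4 also lie in exons of TSPAN31 on the opposite strand. TSPAN31 had at most 1166 reads in a library, against at least 6578 for CDK4, and a log2 fold change of 0.24.

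The E-type cyclins and their kinase fell as well. CCNE1 (cyclin E1, chromosome 19, plus strand, 29811991 to 29824312) held 18.5, 21.4 and 23.5 CPM in the controls and 11.6, 12.4 and 12.4 CPM after knockdown. The knockdown libraries lay close together and below all controls. CCNE1 had a log2 fold change of -0.80 (SE 0.0921, edgeR adjusted p = 1.06e-05) and of -0.90 without siCtrl 1, the lowest control. CCNE1 is known as an E2F target, and the letters of the 4 motifs were not in its window.

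CCNE2 (cyclin E2, chromosome 8, minus strand, 94879770 to 94896678) held 2.78, 2.90 and 3.58 CPM in the controls and 1.92, 1.12 and 1.32 CPM after knockdown. The groups were separate, though siDDX17 1 stood above the other knockdown libraries. CCNE2 had a log2 fold change of -1.08 with a wide 95% interval of -1.52 to -0.65 (edgeR adjusted p = 0.000628). It rested on 41 to 134 reads per library. In addition, 37.0% of its exonic bases lie in exons of INTS8 on the opposite strand, which had up to 1442 reads and a log2 fold change of 0.36. Whether strand was used in counting is not given in the sources used here, so reads of such pairs cannot be told apart. The ratio of CCNE1 to CCNE2 overlapped between the groups (11.3 ± 0.709 in siCtrl and 14.6 ± 4.27 in siDDX17, exact permutation test, p = 0.4).

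CDK2, the kinase of cyclins E and A, lies on chromosome 12, plus strand, from 55966781 to 55972789. The controls held 33.0, 33.4 and 33.8 CPM and the knockdown libraries 16.8, 18.3 and 17.3 CPM. Control libraries were almost equal, and the knockdown libraries were all far lower. For CDK2 the log2 fold change was -0.93 (SE 0.0673, edgeR adjusted p = 1.63e-07). CDK2 carries 2 TATTGCT sites in a 3′ UTR of 1164 bases, and neither is followed by A. Of the genes listed beside CDK2, CCNA2, the S phase cyclin, fell by 0.87 on the log2 scale (SE 0.075). CDK1, the kinase of mitosis, fell by 1.23 on that scale (SE 0.0733). CCNA1 had at most 1 read per library and was not tested.

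RB1, the pocket protein that these kinases phosphorylate, was the member without a detected change. It lies on chromosome 13, plus strand, from 48303744 to 48599436. The controls held 12.6, 9.44 and 9.26 CPM and the knockdown libraries 10.0, 9.85 and 10.7 CPM. The knockdown libraries lay between siCtrl 1 and siCtrl 2 and 3. RB1 had a log2 fold change of -0.037, with a 95% interval of -0.29 to 0.21, so a change of the size seen in CDK4 lies outside the interval in both directions. Without siCtrl 1 it was 0.11 (adjusted p = 0.343), and it was 0.083 with scaling by library size alone. RB1 carries 2 TATTGCT sites that lie next to each other in a 3′ UTR of 1819 bases. Of the related pocket protein genes, RBL2 (p130) fell by 0.37 on the log2 scale (edgeR adjusted p = 0.00743) and by 0.25 with scaling by library size, where its adjusted p was 0.0839. RBL1 (p107) had a log2 fold change of 0.15 (adjusted p = 0.28).

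E2F1, one of the E2F factors that RB1 binds, lies on chromosome 20, minus strand, from 33675477 to 33686385. The controls held 25.7, 27.4 and 24.3 CPM and the knockdown libraries 18.7, 18.1 and 15.6 CPM. No libraries overlapped, and siDDX17 3 was lowest. E2F1 had a log2 fold change of -0.56 (SE 0.0846, edgeR adjusted p = 0.000112). The ratio of E2F1 to RB1 was 4.89 ± 0.870 in siCtrl and 3.34 ± 0.443 in siDDX17 (FPKM, SD, n = 3), without overlap (exact permutation test, p = 0.1). Its 3′ UTR, and that of CCND1, holds 1 ATGGGTG each, the seed match of the other, sense strand of that siRNA, which 10.5% of the genes with a 3′ UTR hold. The matches to the control siRNA, TCGGAGA (sense strand) and TGTCACG (antisense strand), were in the 3′ UTRs of 0 of the 10 members and in 2.13% and 3.07% of all these genes.

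**Figure D2:**
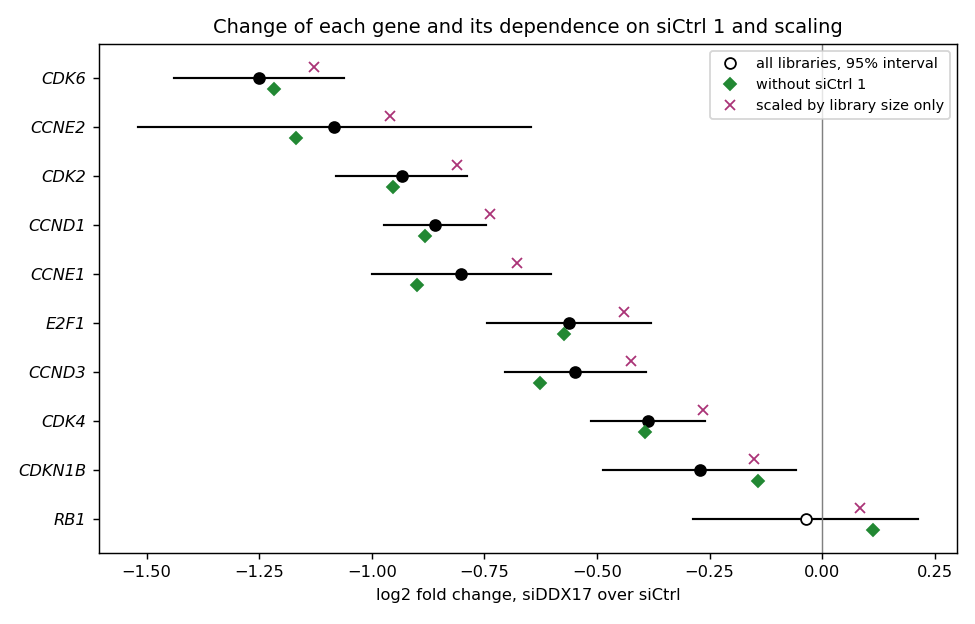
Log2 fold change of siDDX17 over siCtrl (horizontal axis) for each of the 10 genes, with all libraries (circles, filled where the adjusted p is under 0.05, with 95% intervals), without siCtrl 1 (green diamonds) and with scaling by library size only (purple crosses). The 8 largest changes stay below 0 in each of these fits, CDKN1B moves towards 0, and RB1 crosses it.

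CDKN1B, which encodes p27, lies on chromosome 12, plus strand, from 12685498 to 12722369. The controls held 59.7, 50.1 and 42.2 CPM and the knockdown libraries 40.5, 41.3 and 44.02 CPM. Thus siCtrl 3 lay among the knockdown libraries, and siCtrl 1 was the highest. CDKN1B had a log2 fold change of -0.27 (95% interval -0.49 to -0.058, edgeR adjusted p = 0.0363), and without siCtrl 1 it was -0.14 (adjusted p = 0.0582). The call was also lost without siCtrl 2 (adjusted p = 0.0587) or without siDDX17 1, 2 or 3 (adjusted p from 0.0583 to 0.118), and with scaling by library size (adjusted p = 0.28). Relative to the kinase it blocks, CDKN1B was 1.40 ± 0.258 times as abundant as CDK2 in siCtrl and 2.21 ± 0.131 times in siDDX17 (FPKM, SD, n = 3). The groups did not overlap in this ratio (exact permutation test, p = 0.1). The ratio of CCND1 to CDKN1B was 8.11 ± 1.57 in siCtrl and 5.29 ± 0.197 in siDDX17 (p = 0.1 by the same exact test). With p-values adjusted over the 6 ratios compared, 5 had an adjusted p = 0.12 (exact permutation test), and 0.1 is the smallest p this design allows for a ratio.

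**Figure D3:**
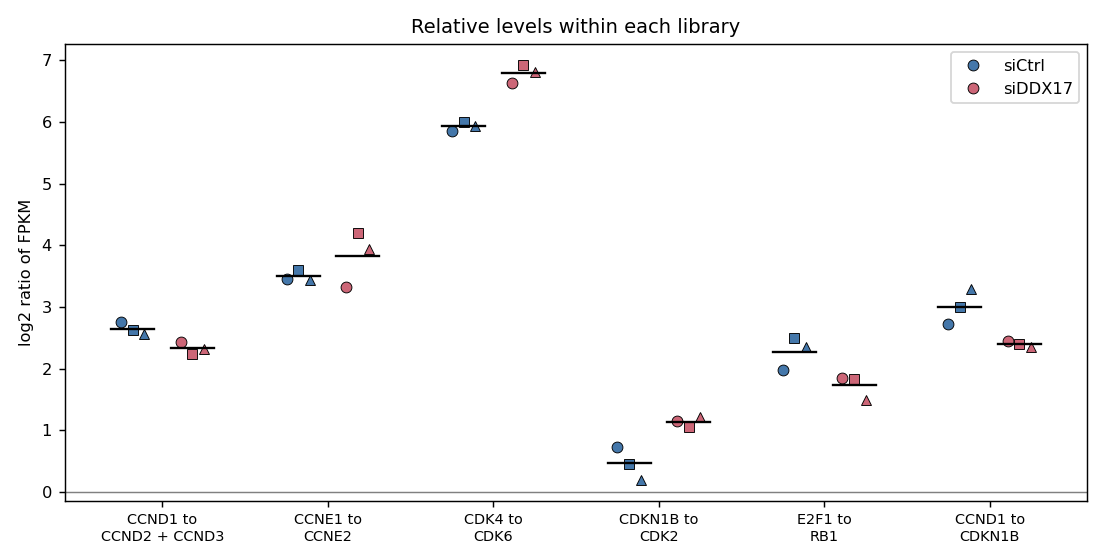
Log2 ratio of FPKM values within each library (vertical axis) for 6 pairs of related genes, in siCtrl (blue) and siDDX17 (red); symbols are replicates 1 (circle), 2 (square) and 3 (triangle), and lines are group means. CDK4 to CDK6 and CDKN1B to CDK2 lie higher in every knockdown library, and CCND1 to CCND2 + CCND3, E2F1 to RB1 and CCND1 to CDKN1B lie lower, while CCNE1 to CCNE2 overlaps.

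Among the CDK inhibitors, CDKN1A fell much more than CDKN1B. CDKN1A encodes p21, an inhibitor of CDK2 which also helps cyclin D assemble with its kinases. The controls held 452, 472 and 501 CPM and the knockdown libraries 210, 228 and 216 CPM. With no overlap, the log2 fold change was -1.12 (SE 0.06, edgeR adjusted p = 1.26e-08), a level 54.1% lower. Both the cyclins and this abundant inhibitor of their kinases fell. Of the 6 inhibitor genes tested, 2 fell, CDKN1A and CDKN1B, and 0 rose. The share lower, 33.3%, was near the 24.3% of all tested genes. CDKN2C (p18, of the INK4 family) had 12.7 ± 0.865 CPM in the controls and 14.4 ± 0.983 CPM after knockdown, without overlap, yet its log2 fold change of 0.19 had an adjusted p = 0.0942 (edgeR). With scaling by library size this was 0.31 with an adjusted p = 0.0145. CDKN3 (log2 fold change -0.26, adjusted p = 0.0526, edgeR) passed without siCtrl 1 (-0.41, adjusted p = 1.92e-06). CDKN2D (-0.069) and CDKN1C (0.037) did not pass, and their signs changed with scaling by library size (0.053) and without siCtrl 1 (-0.025), respectively.

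The E2F and DP family was lower as a group, with TFDP1 and E2F7 changed most. Of 10 genes 8 fell and 1 rose, against 24.3% lower and 24.5% higher of all tested genes. The median log2 fold change was -0.49. TFDP1, the main DNA-binding partner of the E2F factors, went from 43.9 ± 2.19 CPM to 14.4 ± 0.231 CPM (SD, n = 3), which is -1.61 on the log2 scale (SE 0.0682, edgeR adjusted p = 1.90e-09). Its 3′ UTR holds 1 TATTGCT, as do those of E2F7 and RBL2. The 3′ UTRs of CDKN1A, CCNA2, CDK1, E2F2 and E2F3 hold 0, and the part of these sites was not tested. TFDP2, the relative of TFDP1, was at 18.2 ± 0.208 and 19.95 ± 1.24 CPM (log2 fold change 0.13, adjusted p = 0.165, edgeR). E2F7, an atypical repressor that is itself an E2F target, fell by 1.41 on the log2 scale, and its relative E2F8 fell by 0.46. The activators E2F2 and E2F3 fell by 0.98 and 0.52 on that scale. The repressors E2F4 and E2F6 fell by 0.42 and 0.19. E2F5, a partner of RBL2, rose by 0.26 (adjusted p = 0.0364), a call that was lost without siCtrl 1, siCtrl 2, siDDX17 1 or siDDX17 3 (adjusted p = 0.0522, 0.143, 0.0872 and 0.182, edgeR). The calls of E2F6 and E2F8 were lost without siDDX17 1, 2 or 3 (adjusted p from 0.0578 to 0.0783 and from 0.0651 to 0.113, edgeR), and that of E2F8 also without siCtrl 2 (0.116). With scaling by library size alone, the log2 fold changes of all tested genes shifted up by a median of 0.12, E2F6 and E2F8 no longer passed (adjusted p = 0.443 and 0.112, edgeR), and TFDP2 passed (0.25, adjusted p = 0.0174), so that 6 were lower and 2 higher.

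Downstream, most E2F target genes of S phase entry fell. Of 32 such genes, 23 fell and 1 rose, against 24.3% lower and 24.5% higher of all tested genes. The median log2 fold change was -0.35. With scaling by library size, 18 were lower and 4 higher. Among them CDC6, which loads the replicative helicase, fell by 0.96 on the log2 scale. CDC45, a part of that helicase, and TK1, the thymidine kinase, fell by 0.92 and 0.78. The gene that rose was GINS3, by 0.27 (adjusted p = 0.0215, edgeR), named after its values were seen. That call was lost without siCtrl 1, siDDX17 1 or siDDX17 2 (adjusted p = 0.0689, 0.0671 and 0.0738, edgeR). Promoter windows were held for 27 of the 32 genes, and 15 of them (55.6%) had an E2F motif in the first window listed. Counted in the same way, the share was 5.19% of tested genes with a window. Of all 27305 genes with a window, 3.99% held a motif in any of their windows. The list was drawn up as E2F targets, so its share is not an independent result. A match to these letters is a description of the window and not a measured binding site. Of the first windows of the E2F and DP genes, 4 of 8 held a motif, and of those of the G2 and M phase genes 1 of 16.

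The G2 and M phase genes, which act after S phase, fell in 19 of 20 cases. Their median log2 fold change was -0.62, and 24.3% of all tested genes were lower. The exception was CENPF at 0.085 (adjusted p = 0.568, edgeR), named after its values were seen. With scaling by library size, 16 of the 20 were lower and 0 higher, and 18 to 19 were lower with a library left out. CCNF, the substrate receptor of a ubiquitin ligase, fell by 1.43, TPX2 and AURKB of the spindle by 0.92 and 0.89, and the mitotic kinase gene PLK1 by 0.89 on the log2 scale. In bulk RNA, fewer cells in S, G2 or M phase and less of these mRNAs per cell cannot be told apart.

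The subunits of the MuvB core and its partners were mostly without a detected change. MYBL2 and DYRK1A fell by 0.29 and 0.26 and the remaining 5 of 7 did not pass. The share lower, 28.6%, was near the 24.3% of all tested genes. DYRK1A was lost without siDDX17 1 (adjusted p = 0.0602, edgeR), LIN54 passed as lower without siCtrl 3 (-0.55, adjusted p = 0.011) and RBBP4 as higher without siCtrl 1 (0.18, adjusted p = 0.00343), the last 2 being named after their values were seen. Among 8 kinases, phosphatases and cyclins that switch CDKs on or off, 4 fell and 1 rose, against 24.3% and 24.5% of all tested genes. PKMYT1 and WEE1, which inhibit CDKs by phosphorylation, fell by 0.71 and 0.45 on the log2 scale. Of the phosphatases that remove those marks, CDC25C and CDC25B fell by 0.69 and 0.42. The remaining one, CDC25A, overlapped between the groups and did not pass (log2 fold change -0.13, adjusted p = 0.397, edgeR). It passed as lower without siCtrl 1 (-0.27, adjusted p = 0.0205, edgeR), and was named after its values were seen. Of the CDK-activating kinase, CDK7 and CCNH did not pass, and MNAT1 rose by 0.36 (adjusted p = 0.00267, edgeR), these being named after their values were seen.

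Of 10 genes of the ubiquitin ligases that degrade G1 regulators, 7 fell and 1 rose, against 24.3% and 24.5% of all tested genes. With scaling by library size, 5 were lower and 1 higher, and 6 to 8 were lower with a library left out. SKP2 and CKS1B, which together mark p27 for degradation, fell by 0.51 and 0.64 on the log2 scale. FBXO5, an inhibitor of the APC/C and an E2F target, fell by 0.76, and DTL, which directs the degradation of p21 and CDT1, fell by 0.65. AMBRA1, the receptor for degradation of D-type cyclins, rose by 0.30 (adjusted p = 0.0038, edgeR), with 22.4 ± 1.59 CPM in the controls and 27.5 ± 0.352 CPM after knockdown. It was named after its values were seen.

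Of the factors that carry mitogen signals to the G1 cyclin genes, 6 of 10 fell and 3 rose. Among all tested genes, 24.3% were lower and 24.5% higher. With scaling by library size, 4 of the 10 factors were lower and 4 higher. FOSL1, an AP-1 subunit, fell by 0.88 on the log2 scale, with 95.02 ± 1.51 CPM in the controls and 51.5 ± 2.76 CPM after knockdown. JUN, its dimer partner, rose from 21.6 ± 3.30 to 41.2 ± 2.02 CPM, by 0.93 on the log2 scale (adjusted p = 3.94e-06, edgeR). EGR1 and MYCN fell by 1.38 and 1.50 at low levels of 3.70 ± 0.470 and 1.43 ± 0.123 CPM in siCtrl. MYC did not pass, and its control libraries (168, 142 and 129 CPM) overlapped with the knockdown libraries (170, 168 and 161 CPM). Its log2 fold change was 0.18 (adjusted p = 0.0834, edgeR) and 0.29 (adjusted p = 1.16e-05) without siCtrl 1. FOS and STAT3, the other genes that rose, did so by 0.65 and 0.31, and were named after their values were seen.

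**Figure D4:**
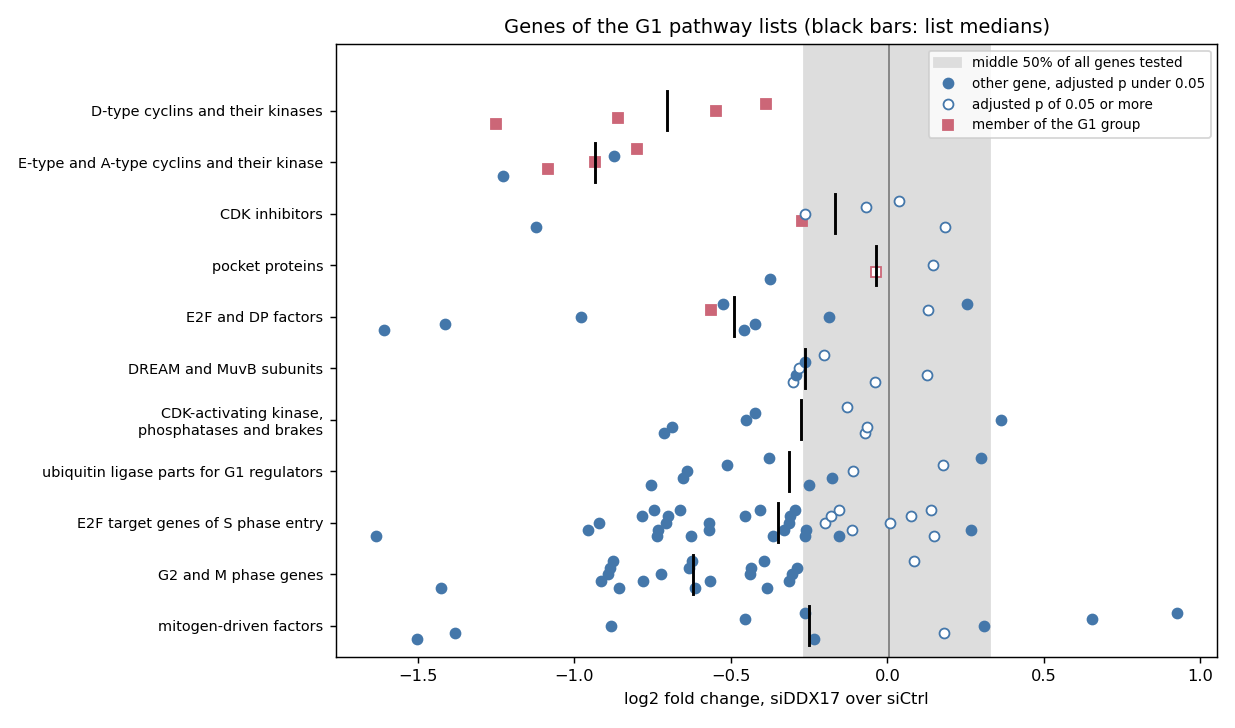
Log2 fold change of siDDX17 over siCtrl (horizontal axis) of the tested genes in 11 lists of the pathway (rows); squares are the 10 G1 control genes, filled symbols have an adjusted p under 0.05, black bars are list medians and the grey band holds the middle 50% of all tested genes. The D-type and E-type or A-type lists lie wholly to the left of the band, and the G2 and M phase list has a median of -0.62, while CDK inhibitors and pocket proteins have medians of -0.17 and -0.037.

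Across all 119 genes of these lists, 115 were tested, of which 81 fell and 7 rose, against 24.3% and 24.5% of all tested genes. Without the 10 members, the counts were 72 lower and 7 higher of 105 tested. Without siCtrl 1, the number of lower genes was 27 among E2F targets (23 with it), 5 among the genes that switch CDKs (4 with it), 8 among ubiquitin ligase genes (7 with it) and 18 among G2 and M phase genes (19 with it), and that of lower members was 8. The lists overlap in function, so their genes are not independent of each other.

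Members with and without a TATTGCT site overlapped in their changes. CDK6 with 3 sites and CDK2 with 2 had log2 fold changes of -1.25 and -0.93, and RB1 with 2 had -0.037. The 7 members without a site included CCNE2 at -1.08, CCND1 at -0.86 and CDKN1B at -0.27. Of all genes with a 3′ UTR, 26.3% of 11104 without a site were lower in siDDX17, as were 28.1% of 1574 with 1 site, 28.6% of 252 with 2 sites and 33.9% of 56 with 3 or more. The median 3′ UTR length grew with the number of sites, from 1088 to 2971, 4402.5 and 5441 bases. The part of these sites in the changes of CDK6 and CDK2 was not tested.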

How the data were processed

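Libraries of A549 cells, 3 siCtrl and 3 siDDX17, were grouped by their titles. Reads from a stranded poly(A) library kit were trimmed by the authors and aligned with TopHat2 to GRCh38, and uniquely mapped reads were kept. They deposited raw counts per gene (29476 genes) and FPKM values (29242 genes). The counting program, annotation and use of strand are not given in the sources used here. The methods call the libraries biological replicates without saying whether they were separate cultures, so p-values measure the spread between these samples.

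Counts were tested with edgeR 4.0.16 in R 4.3.3 (TMM scaling, expression filter, glmQLFit, glmQLFTest, Benjamini-Hochberg adjustment over 15615 genes). A gene is said to rise or fall at an adjusted p under 0.05. The common biological coefficient of variation was 0.0754. The fit was tested on simulated data. FPKM values served to compare genes within a library, with exact two-sided permutation tests over libraries. Alternatives were DESeq2 1.42.0, the exact test of edgeR, other scalings and filters, limma 3.58.1 on log2(FPKM + 1) and log2(FPKM + 0.1), other call limits, the replicate number as a block and leaving out each library. Named were DDX17, the 10 members, all genes of the 5 lists of cyclins, CDKs, inhibitors, pocket proteins and E2F factors, and from each other list up to 4 passing genes with the largest changes plus any past a log2 fold change of 1. Of the genes this rule names, 1 is not reported here. The members and lists were chosen with earlier results of these data known. Positions and 3′ UTRs are from GENCODE 44 (98.9% of tested genes matched), promoters from RefSeq. Python 3.11.15, numpy 2.4.6, pandas 2.3.3 and matplotlib 3.10.9 were used.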

Additional observations from a re-analysis of the deposited data

How the results depend on the processing

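The count of lower members was 8 or 9 of 10 in every fit that kept the limit of an adjusted p under 0.05, including each fit with a library left out (8 to 9), and the count of higher members was 0. It was 5 at the limits of the methods and 2 with an absolute log2 fold change over 1. CDKN1B was the gene lost, in 11 of 17 alternatives. RB1 changed sign with scaling by library size (0.083), on log2(FPKM + 1) with and without the filter (0.068) and on log2(FPKM + 0.1) (0.10), and ranged from -0.12 to 0.11 with a library left out. On the log2(FPKM + 1) scale, which compresses low levels, CDK6 and CCNE2 had log2 fold changes of -0.59 and -0.36. With scaling by library size, the counts were 1 lower and 1 higher for CDK inhibitors, 0 lower for pocket proteins, 2 higher for E2F and DP factors, 1 lower and 1 higher for MuvB subunits, and 4 higher for E2F target genes. With a library left out, CDK inhibitors had 1 to 2 lower, MuvB subunits 1 to 3 lower and 0 to 1 higher, and E2F and DP factors and E2F target genes 0 to 1 higher. The cause was not tested. The log2 ratio of CCNE1 to CCNE2 was between 0.14 (without siDDX17 2) and 0.58 (without siDDX17 1), against 0.33 with all libraries. With the replicate number as a block, 8 members were lower and 0 higher, and CDKN1B had an adjusted p = 0.0502. No pairing by replicate number was detected. Deviations from the group means correlated at 0.0070, 0.041 and -0.056 for replicates 1, 2 and 3, and siCtrl 1 correlated most with siDDX17 3 (0.057). Such values do not show whether the samples were prepared in pairs. Depth limits CCNE2, with 41 to 134 reads.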
